A study of Caenorhabditis elegans with 4 samples.

Results

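Chromosomes II and V of Caenorhabditis elegans carried 367 of the 1333 binding sites that the authors' combined peak list gives for NFYA-1 in young adult hermaphrodites. The members are all lines of that list on either chromosome, 169 on II and 198 on V. The list of replicate 1 held 82 sites on II and 67 on V, and that of replicate 2 held 102 and 80. The animals were of strain OP404. They carried the mutation unc-119(ed3) on chromosome III and the transgene wgIs404, introduced by bombardment, which holds unc-119(+) as rescue beside nfya-1::TY1-GFP-3xFLA, as the labels write the tagged gene. They were grown at 20 °C. All 4 samples, 2 ChIP samples and 2 inputs, share this genotype, so there is no sample without the tagged transgene. The genotype names no mutation of the native nfya-1 gene, and whole animals were used, so the cell types behind a site are not known. Whether the replicates came from different cultures is not stated in the labels.

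NF-Y is a trimeric transcription factor. Its B and C subunits pair through histone folds, and its A subunit, of which NFYA-1 is a form, reads the CCAAT box, a common element of promoters. The chromosomes of C. elegans are holocentric, with attachment to the spindle along their length. Their central parts are known to recombine rarely and to hold many conserved genes, whereas the arms recombine more and are richer in repeats. Chromosome V is known for large families of chemoreceptor and nuclear receptor genes. The genes and sequences under the sites were not analysed here.

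Positions are those of the files, on WormBase WS180. Strength is given as −log10 of the authors' q-value, in which a larger value is a more significant peak. Read depth is unknown, and deeper sequencing lowers a q-value at equal enrichment. The weakest value listed was 3.96 for combined peaks, 4.22 for replicate 1 and 4.12 for replicate 2. A peak was called found in a replicate when it overlapped a peak of that list by at least 1 bp. Each chromosome, from base 1 to the last peak end of any list, was cut into 3 equal parts, at 5.01 and 10.02 Mb on II and at 6.92 and 13.8 Mb on V. The outer parts are called the left and right arm and the inner part the centre. Intervals of shares are exact Clopper-Pearson 95% intervals and cover counting error only. Neighbouring peaks are not independent of each other, so the p-values below, which treat each peak as a unit, may be too small.

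The 2 chromosomes differed in how many of their combined peaks the replicates held. On II, 68 of 169 peaks were found in both replicates, which is 40.2% (95% interval 32.8 to 48.04%). On V, 45 of 198 were, which is 22.7% (17.1 to 29.2%). Over all chromosomes the share was 32.6%, so II lay above this background and V below it. The shares of II and V differed by 17.5 percentage points (two-sided Fisher's exact test, adjusted p = 0.00454, Benjamini-Hochberg over 11 tests). The combined list rests on the same libraries as the replicate lists, so these shares describe how the lists relate and give no separate proof of binding.

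Peaks that neither replicate held made up most of V. They were 104 of its 198 peaks, or 52.5% (45.3 to 59.6%), against 61 of 169 on II, or 36.1% (28.9 to 43.8%), and 41.8% over all chromosomes. Peaks found in replicate 2 alone numbered 29 on II (17.2%) and 31 on V (15.7%), near the 18.2% over all chromosomes. Those found in replicate 1 alone numbered 11 (6.51%) and 18 (9.09%), against 7.43% over all. Per unit of length, II held 4.53 peaks per Mb found in both replicates and V held 2.17, whereas peaks found in neither were at 4.06 and 5.01 per Mb. Of the 2, V was thus the sparser in well supported sites and the denser in unsupported ones. Peaks found in neither were at 6.15 per Mb on the other chromosomes and at 5.25 without III. Per unit of length both II and V lay below these values, V only slightly below the others without III. As a share of its peaks, V held more unsupported ones, 52.5% against 40.6% (37.5 to 43.8%) on the other chromosomes. Neither comparison with the others was tested.

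**Figure D1:**
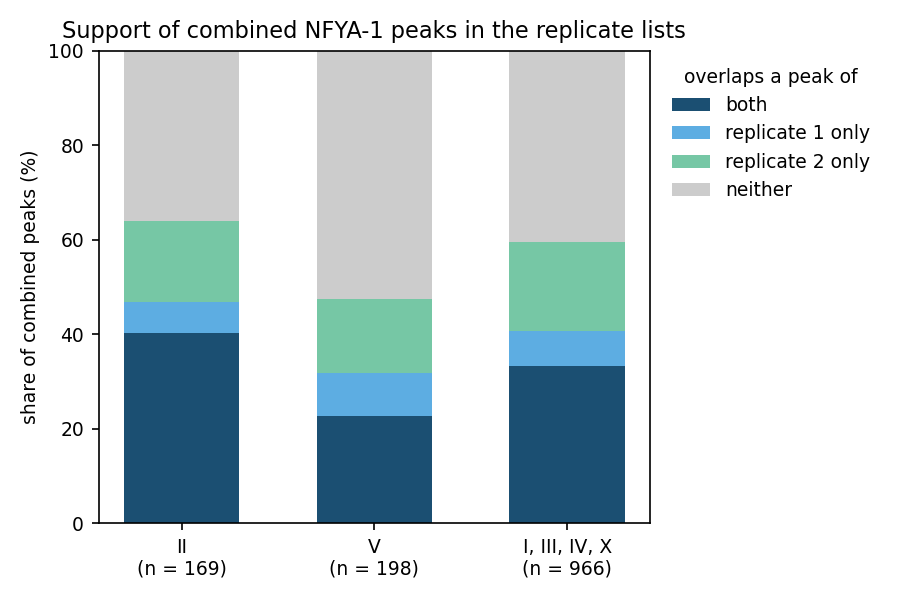
Share of combined NFYA-1 peaks (vertical axis, %) that overlapped a peak of both replicates, of 1 replicate or of neither, for II, V and the other chromosomes together. The part found in both is 40.2% on II, 22.7% on V and 33.3% elsewhere.

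A difference in the density of all combined peaks was not shown. II held 11.2 peaks per Mb and V 9.53, a ratio of 1.18 (95% interval 0.955 to 1.46; exact conditional test, adjusted p = 0.344). In the lists of single replicates the gap was larger. Replicate 1 gave 5.46 sites per Mb on II and 3.23 on V, a ratio of 1.69 (adjusted p = 0.0169, the same exact test). Replicate 2 gave 6.79 and 3.85, a ratio of 1.76 (adjusted p = 0.00174, the same exact test). Per 1 Mb segment, II held 5.47 ± 3.38 sites in replicate 1 and 6.80 ± 3.73 in replicate 2 (SD, n = 15 segments). This spread is wider than the exact test assumes, so its p-values are likely too small. Among combined peaks with a −log10 q of at least 7 the ratio was 1.68 (adjusted p = 0.0078, the same exact test). Below that value the order was the opposite, with 4.86 peaks per Mb on II and 5.73 on V.

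Strength was the higher on II in the combined list, but not beyond the threshold, and in replicate 2 the order of the medians was the opposite. The median −log10 q was 7.53 on II (quartiles 5.60 and 12.3) and 6.22 on V (5.03 and 9.65). In replicate 1 the medians were 6.50 and 6.22, and in replicate 2 they were 6.73 on II and 7.0 on V. A value of at least 10 was reached by 59 peaks on II, or 34.9% (27.8 to 42.6%), and by 46 on V, or 23.2% (17.5 to 29.7%), against 31.4% over all chromosomes. This difference had an unadjusted p of 0.0151 and an adjusted p of 0.0831 by Fisher's exact test. In the replicate lists the shares were close, 22.0% and 17.9% in replicate 1 and 26.5% and 26.3% in replicate 2, each with an adjusted p above the threshold. The peaks nearest to the limit had −log10 q of 9.95 and 10.1 on II and of 9.87 and 10.2 on V.

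Support followed strength on both chromosomes. A −log10 q of at least 20 was reached by 19 peaks on II (11.2%) and 11 on V (5.56%), against 10.1% over all chromosomes, and all 30 of them were found in both replicates. In the replicate lists few sites reached this limit, and the share was the lower on II, which was not tested. Replicate 1 had 4 of 82 sites on II, 4.88% (1.34 to 12.02%), and 7 of 67 on V, 10.4% (4.30 to 20.3%). Replicate 2 had 8 of 102 on II, 7.84% (3.45 to 14.9%), and 7 of 80 on V, 8.75% (3.59 to 17.2%). In each list the intervals of II and V overlap, so an opposite order was not shown. Between 10 and 20, 35 of 40 combined peaks on II were found in both (87.5%) and 26 of 35 on V (74.3%), against 79.9% on the other chromosomes. Between 7 and 10 the counts were 13 of 37 (35.1%) and 8 of 33 (24.2%), against 23.4% on the others. Below 7, 1 of 73 peaks on II was found in both, and 0 of 119 on V. A count of 0 of 119 allows a share of up to about 2.52%. This limit is the approximate one of 3 counts over the total, not a Clopper-Pearson limit. V held 60.1% of its peaks in that weakest range and II 43.2%. When peaks under 7 were left out, the difference in support was 12.8 percentage points and did not pass (Fisher's exact test, adjusted p = 0.309). Among peaks of at least 10 it was 11.1 percentage points (adjusted p = 0.404, the same exact test).

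The strongest site of II lay near the left edge of its centre, at 5659400 to 5662344. It spanned 2945 bp and reached 181 in the combined list, 107 in replicate 1 and 128 in replicate 2 as −log10 q. No other site of II came near these values in any of the 3 lists. The next, at 12338983 to 12339458, was a narrow peak of 476 bp with 69.5 in the combined list, 33.5 in replicate 1 and 46.0 in replicate 2. A site at 11749119 to 11750184 had 59.3 in the combined list, 21.2 in replicate 1 and 43.6 in replicate 2. At 9283464 to 9285960, a site of 2497 bp had 44.4, 19.4 and 26.1 in the same order.

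The remaining strong sites of II fell between 38.6 and 30.9 in the combined list. They began at 11618899, 3930199, 3917733, 13855068 and 4376431, and the pair at 3917733 and 3930199 lay within 13.8 kb of sequence. Of the 10 strongest sites of II, 3 lay in the left arm, 2 in the centre and 5 in the right arm, and all 10 were found in both replicates. At 9 of them the q-value of replicate 2 was the lower. The exception was 3930199 to 3931567, with 21.6 in replicate 1 and 20.8 in replicate 2. The 10th site had 10.9 in replicate 1 and 23.7 in replicate 2, a ratio of 2.17 against 1.19 at the strongest site.

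The broadest peak of the whole combined list belonged to II. From 10541839 to 10556243 it covered 14405 bp, and its −log10 q was 61.0. Replicate 2 called a single peak of 11079 bp there with 32.9. Replicate 1 called 3 separate peaks of 3858, 2383 and 1541 bp, with 11.3, 4.69 and 6.47. The replicates thus disagreed on the form of this site, and its ratio of −log10 q between replicate 2 and replicate 1, 2.90, was the highest among the 68 sites of II found in both.

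The other 2 peaks of II wider than 3000 bp were also split. At 8743012 to 8748134 the combined peak of 5123 bp had a −log10 q of 26.0. Replicate 1 covered 2146 bp of it with 5.92, and replicate 2 called 2 peaks there with 11.3 and 5.28. At 6345184 to 6348945 a combined peak of 3762 bp and 17.1 met 1 replicate 1 peak of 5.92 and 2 replicate 2 peaks of 7.93 and 5.61. Both lay in the centre.

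On V the strongest site lay in the left arm, at 6098572 to 6101890, and spanned 3319 bp. Its −log10 q was 132 in the combined list, 87.8 in replicate 1 and 123 in replicate 2. Replicate 1 had a second, weak peak of 5.33 on the left side of the same site, which replicate 2 did not separate. The second strongest site, at 14685520 to 14686530, was 1011 bp wide with 96.2 in the combined list, 72.7 in replicate 1 and 91.2 in replicate 2. These were the only sites of V above 50 in either replicate.

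A further strong site of V, at 723716 to 728348, lay close to the left end of the chromosome. It was broad in every list, with 4633 bp in the combined list, 4561 bp in replicate 1 and 4490 bp in replicate 2, and had 78.6, 30.9 and 45.9 in that order. The next in strength, at 6220724 to 6230079, had another form. Its combined peak of 9356 bp had a −log10 q of 75.3, yet its pieces in the replicates reached no more than 10.4 in replicate 1 and 16.4 in replicate 2. Each replicate called 3 peaks there, and their positions matched closely, with the first starting at 6223673 in replicate 1 and at 6223611 in replicate 2.

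Near the middle of V, 4 sites made up the rest of its strongest 8. A site of 1416 bp at 9730810 to 9732225 had 66.1 in the combined list, 25.8 in replicate 1 and 47.2 in replicate 2. A site of 2416 bp at 11887674 to 11890089 had 60.2, 27.8 and 42.2 in that order. The other 2 were narrow, 411 bp at 9860266 to 9860676 with 48.6 in the combined list and 521 bp at 11503212 to 11503732 with 44.5. The last of these was stronger in replicate 1 (29.0) than in replicate 2 (22.2), as was the 10th site at 16361256 to 16361919 (15.1 and 13.0). Between them in rank, a site at 5049251 to 5050038 had 28.8 in the combined list. All 10 strongest sites of V were found in both replicates, with 4 each in the left arm and the centre and 2 in the right arm.

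At sites found in both replicates the values of replicate 1 and replicate 2 were correlated. Pearson's r of −log10 q was 0.960 over 68 sites of II and 0.981 over 45 sites of V, and Spearman's rho, which gives the strongest sites no extra weight, was 0.698 and 0.707. All points of a list come from a single library. The q-value was lower in replicate 2 at 47 of 68 sites on II (69.1%) and at 33 of 45 on V (73.3%), against 65.8% of 322 such sites on the other chromosomes. The median ratio of −log10 q, replicate 2 over replicate 1, was 1.24 on II and 1.28 on V. Midpoints of the peaks lay a median of 27.5 bp apart on II and 34.5 bp on V. The highest ratio on V was at 17857824 to 17858388, with 4.71 in replicate 1 and 12.9 in replicate 2, and the lowest ratio on II was at 10860823 to 10861607, with 10.2 in replicate 1 and 4.83 in replicate 2. These 2 sites were picked after their values were seen.

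**Figure D2:**
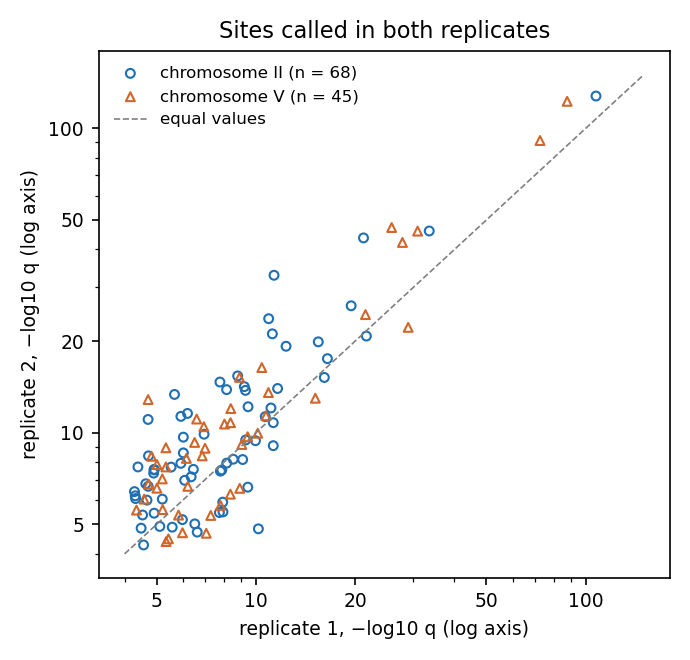
−log10 q in replicate 1 (horizontal, log axis) and replicate 2 (vertical, log axis) for the 68 sites of II and the 45 sites of V found in both replicates, each point 1 combined peak with the best value of each list. Most points lie above the dashed line of equal values, 47 on II and 33 on V.

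Without the combined list, the agreement between replicates was not shown to differ between the chromosomes. Of replicate 1 sites, 71 of 82 on II were found in replicate 2 (86.6%, 77.3 to 93.1%) and 49 of 67 on V (73.1%, 60.9 to 83.2%), against 81.7% over all chromosomes (Fisher's exact test, adjusted p = 0.220). Of replicate 2 sites, 69 of 102 on II were found in replicate 1 (67.6%, 57.7 to 76.6%) and 49 of 80 on V (61.3%, 49.7 to 71.9%), against 63.9% over all (Fisher's exact test, adjusted p = 0.598). In both lists the share was the higher on II. Replicate sites that the other list lacked were mostly weak, with median −log10 q between 4.89 and 5.31 on both chromosomes in both lists. They reached 7.74 on II and 7.16 on V in replicate 1, and 10.9 on II and 13.0 on V in replicate 2.

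A few sites lacked the support that their strength usually brought. On V the strongest peak found in neither replicate, at 6275987 to 6278734, had a −log10 q of 12.9 over 2748 bp. On II the strongest such peak, at 4440908 to 4441633, had 8.96. The strongest peak found only in replicate 1 lay on V at 5838486 to 5840344, with 15.8 in the combined list and 7.16 in replicate 1. A gap of 328 bp separated it from a broader peak of 4140 bp that both replicates held, with 5.83 in replicate 1 and 5.36 in replicate 2. On II the counterpart was at 4851629 to 4851984, with 12.3 in the combined list and 7.51 in replicate 1. Sites found only in replicate 2 reached 14.9 on V, at 18967610 to 18967986, and 13.0 on II, at 12108784 to 12109145.

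Weak sites were rarely found in both replicates. The weakest supported site of II, at 10033344 to 10033748, had 6.40 in the combined list, 4.91 in replicate 1 and 5.44 in replicate 2. It was the only such site under 7 on either chromosome. The weakest supported site of V, at 20585668 to 20585963, had 7.07 in the combined list, 7.30 in replicate 1 and 5.35 in replicate 2. It lay above the median of 6.22 over all combined peaks of V. It was the only one of 45 such sites on V at which a replicate had a lower q-value than the combined list. On II there was also 1, at 12790291 to 12791165, picked after its values were seen.

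The centre, 1 of the 3 equal parts of each chromosome, held 51 peaks of II, 30.2% (23.4 to 37.7%), and 70 peaks of V, 35.4% (28.7 to 42.4%), against 35.0% over all chromosomes. The difference between II and V did not pass (Fisher's exact test, adjusted p = 0.598). In peaks per Mb the centres were level, at 10.2 on II and 10.1 on V. A difference in support between centre and arms was not shown on either chromosome. On II, 39.2% of centre peaks and 40.7% of arm peaks were found in both replicates (Fisher's exact test, adjusted p = 1), and on V 24.3% and 21.9% (adjusted p = 0.797).

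The arms of II and V held their peaks in opposite orders. On II the left arm held 44 peaks and the right arm 74, which is 8.78 and 14.8 peaks per Mb. V had 77 peaks on the left and 51 on the right, or 11.1 and 7.36 per Mb. The replicate lists showed the same orders, with 19 and 41 sites on II and 25 and 20 on V in replicate 1, and 23 and 47 on II and 31 and 23 on V in replicate 2. Left against right was compared after the counts were seen, so no test is given.

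**Figure D3:**
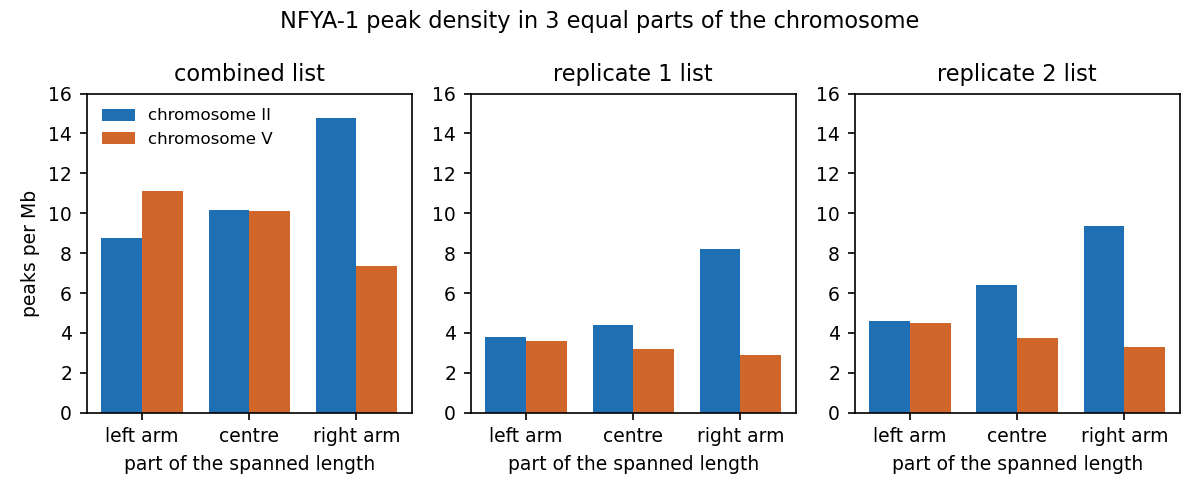
Peaks per Mb (vertical axis) in the left arm, centre and right arm (3 equal parts of the spanned length) of II and V, in the combined list and in each replicate list. II is highest on the right in all 3 lists, at 14.8, 8.19 and 9.38 per Mb, and V is highest on the left, at 11.1, 3.61 and 4.48.

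Support on V was lowest where its peaks were most frequent. In its left arm 13 of 77 peaks were found in both replicates (16.9%, 9.31 to 27.1%), against 17 of 70 in the middle (24.3%, 14.8 to 36.01%) and 15 of 51 on the right (29.4%, 17.5 to 43.8%). These intervals overlap. On II the shares were 36.4%, 39.2% and 43.2% from left to right, so each of its 3 parts lay above every part of V. In the combined list the share of strong peaks on V had the same order as support, but other measures of strength did not. A −log10 q of at least 10 was reached by 14 of 77 peaks in its left arm (18.2%), 24.3% in the centre and 29.4% on the right. The median −log10 q was 6.29, 6.04 and 6.35 from left to right. In the replicate lists the share of at least 10 was lowest on the right. From left to right it was 20.0%, 22.7% and 10.0% in replicate 1, and 25.8%, 30.8% and 21.7% in replicate 2. The strongest single peak of V nevertheless lay in the left arm. Left against right was not tested for support or strength.

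In whole segments of 1 Mb, II held 11.2 ± 5.48 combined peaks (SD, n = 15 segments) and V 9.60 ± 4.72 (n = 20 segments). Peaks found in both replicates numbered 4.53 ± 3.02 per segment on II and 2.20 ± 1.51 on V. The densest segment of II, from 11 to 12 Mb, held 22 peaks, of which 9 were found in both replicates and 5 were broad. On V the segments from 0 to 1 Mb and from 10 to 11 Mb held 18 each, with 3 and 5 found in both. The emptiest segments held 2 peaks each, from 2 to 3 Mb on II and from 18 to 19 Mb on V. Of the 2 peaks on II both were found in both replicates. The segment of II from 7 to 8 Mb, picked after the counts were seen, held 6 peaks, none of them found in both and none above 7.08.

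Supported sites lay farther apart on V than on II, whereas the medians over all combined peaks were near each other. The median gap between combined peaks was 53.4 kb on II (quartiles 13.4 and 125 kb) and 57.6 kb on V (8.52 and 147 kb). Between peaks found in both replicates it was 101 kb on II and 346 kb on V. In the replicate lists the medians were 83.6 kb on II and 199 kb on V in replicate 1, and 87.5 and 155 kb in replicate 2. Gaps and densities are not separate measures here.

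A difference in the share of close neighbours was not shown. The next peak lay under 5 kb away at 27 of 168 peaks of II, 16.1% (10.9 to 22.5%), and at 36 of 197 peaks of V, 18.3% (13.1 to 24.4%), against 19.9% over all chromosomes (Fisher's exact test, adjusted p = 0.797). Peaks joined by such gaps formed 20 groups on II, with 47 peaks, and 30 groups on V, with 66 peaks. Most were pairs, 14 on II and 25 on V. The gaps nearest to the limit were 4110 and 5123 bp on II and 4887 and 5617 bp on V.

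The largest group of each chromosome held 4 peaks in its right arm. On II it ran from 14039842 to 14050859. Its peaks had −log10 q of 21.2, 8.68, 15.8 and 5.91, and all but the last were found in both replicates. On V it ran from 16350944 to 16361919 with 4.17, 10.2, 9.75 and 24.6, of which the last 2 were found in both. In each group the strongest peak lay at an end, the left end on II and the right end on V. The closest pair of II was separated by 205 bp, after the peak that ends at 11634619, and that of V by 235 bp, after the peak that ends at 730801.

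The longest empty stretches lay mostly in the sparser arm. On II, 4 of the 5 longest gaps lay in the left arm, the longest running 595 kb between peaks at 2379062 and 2973862. On V, 4 of the 5 longest lay in the right arm, from 473 to 886 kb, but the longest of all, 921 kb between 2711018 and 3632210, lay in the left. No site of either replicate list lay inside the longest gap of either chromosome. The combined peaks reached from 24446 to 15026036 on II and from 8066 to 20774656 on V, and neither the first nor the last peak of either chromosome was found in both replicates.

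Broad peaks, wider than 1000 bp, were 26 of 169 on II, 15.4% (10.3 to 21.7%), and 39 of 198 on V, 19.7% (14.4 to 25.9%), against 14.6% over all chromosomes. The difference did not pass (Fisher's exact test, adjusted p = 0.598). They made up 44.6% of the 131 kb that peaks covered on II and 52.9% of the 157 kb covered on V. The median width over all peaks was 491 bp on II and 462 bp on V. The peaks nearest to the limit were 1000 and 1002 bp wide on II and 976 and 1011 bp on V.

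Along II, 15 of the 26 broad peaks lay in the centre, where they were 29.4% of the peaks, against 2 of 44 on the left (4.55%) and 9 of 74 on the right (12.2%). In replicate 1 the centre of II held 7 of 12 broad sites, and in replicate 2 it held 9 of 17. On V the combined list had 14 in the left arm (18.2%), 17 in the centre (24.3%) and 8 in the right arm (15.7%). Its replicate lists had few on the right, with 7, 5 and 1 broad sites from left to right in replicate 1 and 8, 5 and 1 in replicate 2. On the other chromosomes the centre also had the highest share, 16.2% against 14.8% on the left and 9.37% on the right. These counts were looked at after the data were seen and were not tested.

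Width did not guarantee support. On II 13 of 26 broad peaks were found in both replicates (50.0%, 29.9 to 70.07%), against 38.5% of narrower ones, and on V 15 of 39 (38.5%, 23.4 to 55.4%) against 18.9%. The other chromosomes had the same order, with 46.9% of broad and 31.2% of narrower peaks found in both. Broad peaks were also the stronger ones. Their median −log10 q was 9.84 against 7.48 on II, 7.63 against 6.01 on V and 11.1 against 6.98 elsewhere. Width was not separated from strength here, and the overlap rule of 1 bp was not adjusted for width. V held 7 peaks wider than 3000 bp and II held 3. The second widest of V, at 10711548 to 10718196, covered 6649 bp and had a value of 19.6, where replicate 1 called 1068 bp with 10.1 and replicate 2 called 4836 bp with 9.96. Among these 7, named after their values were seen, a peak of 3600 bp at 16592091 to 16595690 had 7.63 and was found in neither replicate. A peak of 4003 bp at 15566384 to 15570386 had 15.9 and was called as 2 separate peaks in each replicate.

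**Figure D4:**
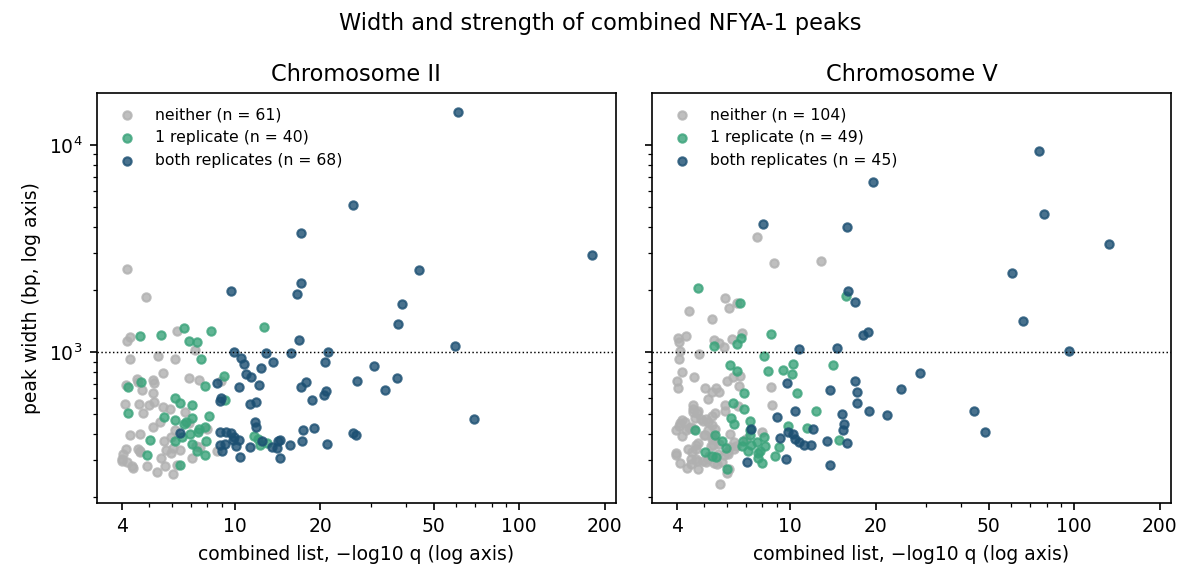
Width (bp, vertical log axis) against −log10 q in the combined list (horizontal log axis) of the 169 peaks of II and the 198 of V, coloured by support in the replicate lists, with a dotted line at 1000 bp. Peaks found in neither replicate, 61 on II and 104 on V, crowd the weak end, and all peaks of at least 20 were found in both.

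Set against the other 4 chromosomes together, II and V as a pair were not shown to differ in support. Of their 367 peaks 113 were found in both replicates, 30.8%, against 322 of 966 elsewhere, 33.3% (Fisher's exact test, adjusted p = 0.598). In density, II and V at 11.2 and 9.53 combined peaks per Mb both lay below the 15.2 of the others pooled. That value includes the dense chromosome III, and I and X held 12.0 and 11.9 per Mb. In peaks found in both replicates II held 4.53 per Mb and V 2.17, against 5.05 on the others and 4.06 on the others without III. The median −log10 q of the others was 7.27, between those of II and V.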

How the data were processed

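ChIP-seq peaks of GFP-tagged NFYA-1 were taken from 3 deposited lists, 1 for each ChIP replicate and 1 that combines them. The authors called peaks with PeakSeq on WormBase WS180, per the file headers and fields, and deposited a q-value for each peak. Not given in the sources used here are the aligner, tool versions, q limit and the way the replicates were combined. No depth is given, and the inputs have no values here. Per the labels' protocols, animals were fixed with 2% formaldehyde and chromatin was precipitated with anti-GFP antibodies. The replicate 1 list repeats lines; those written 2 or 3 times were used.

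Span ran from base 1 to the last peak end of any list. Fisher's exact tests and an exact conditional test of densities were two-sided, with Benjamini-Hochberg adjustment over 11 tests and a threshold of 0.05. For each alternative, single replicate lists included, the 11 tests were re-run and adjusted anew. Members, comparisons and limits were chosen with earlier results of these data known. Sites named were the 10 strongest and 3 widest of each chromosome, the extremes of each support class, group, gap, segment and end; others are marked. Alternatives covered the overlap rule, q limit, span, centre, gap, width, replicate 1 version, single lists and dense segments. Code was tested on simulated data and used scipy 1.17.1, numpy 2.4.6 and matplotlib 3.10.9 under Python 3.11.15.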

Additional observations from a re-analysis of the deposited data

How the results depend on the processing

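Of 69 alternatives to 11 results, 56 left both direction and call as they were. The ratio of densities of II to V was 1.18 in the combined list. It passed the threshold at 1.68 with a −log10 q of at least 7 and at 1.77 with at least 10. It also passed at 2.09 among peaks found in both replicates and at 1.69 to 1.76 in either replicate's own list. The 2.09 was taken among peaks chosen by support, so it is not separate from the difference in support. The difference in support between II and V ran from 11.1 to 19.6 percentage points. It no longer passed with a −log10 q of at least 7 (12.8) or at least 10 (11.1), where fewer peaks remain and the difference was also smaller. With support from a single replicate it was 14.9 to 19.01. None of the other 9 results passed under any alternative run. Signs changed, none past the threshold, for close neighbours with a −log10 q of at least 7 (0.0405 percentage points), for support in the centre against the arms of II with the middle 50% as centre (1.40) and without replicate 1 (4.85, against −5.17 without replicate 2, where the sign held), for the same on V without either replicate (−1.92 to −0.603), and for II and V against the others with a −log10 q of at least 7 (1.96). Limits of 5 and 10 on −log10 q, peaks found in both, merging of peaks and narrow peaks alone were 7 alternatives added after the data were seen. No paired analysis was possible because no values of the inputs, whose numbers match those of the ChIP samples, were used here. Depth is unknown, so absence from a list means only that a site did not reach that list's limit.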

Other observations

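All replicate 1 sites on II and V were held by the combined list, as were all replicate 2 sites on V. On II, 4 of 102 replicate 2 sites were not, and replicate 1 lacked them too. They lay at 848589 to 848949, 4999166 to 4999459, 10502486 to 10502991 and 10851028 to 10851447, with −log10 q of 4.15, 4.87, 4.44 and 5.09, close to the weakest listed value of 4.12. In the whole series 7 replicate 2 sites were missing from the combined list.

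The repeated lines of the replicate 1 list also touched both chromosomes. On II the file gave 69 lines 3 times, 13 lines 2 times and 13 a single time. On V the counts were 59, 8 and 9. With the lines written once in place of those written 2 times, recovery of replicate 1 sites in replicate 2 differed between II and V by 14.5 percentage points in place of 13.5 (Fisher's exact test, adjusted p = 0.144 in place of 0.220).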
